A study of Mus musculus with 4 samples.

Results

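Complement genes were followed across the interstitial cells of the mouse heart, in 32 genes chosen by name from the 32286 features of a droplet single-cell RNA sequencing table. All 32 were found among the features. They comprise the C1q chains and proteases of the classical pathway, lectin and alternative pathway components, C3, terminal components, regulators and receptors. Hearts came from mice of the strain labelled Ccr2creERT2-Ai14, in which Ccr2 drives a drug-inducible Cre (CreERT2) and Ai14 is a tdTomato reporter that Cre switches on, so stroke and control animals alike carried both alleles. The labels give 2 hearts taken 1 month after stroke and 2 taken 1 month after a control condition. They give no age, sex or reporter induction. Cells are interstitial because the digest was strained to hold back cardiomyocytes, red cells were lysed, dead cells were removed with beads and live nucleated cells were sorted.

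Complement is a cascade of blood and tissue proteins that marks surfaces for uptake, recruits white cells and can form pores in membranes. The classical pathway starts when C1q binds antibody or other ligands and activates the proteases C1r and C1s, which cut C4 and C2. The lectin pathway starts from ficolins, collectins and their serine proteases, and the alternative pathway from C3 itself with factor B, factor D and properdin. All pathways meet at C3, whose fragments tag surfaces and signal through receptors, and continue to C5 and the terminal components. The liver supplies most plasma complement, and macrophages are a main source of C1q.

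The table joins 4 libraries, numbered by barcode suffix, and neither the file nor the labels used here tie a suffix to a heart. No stroke-against-control comparison was made for this reason, and the table was treated as 1 sample. Values are unique molecular identifiers (UMIs), tags that count RNA molecules, summed over the cells of a class and divided by that class's total, scaled to counts per 1000000 UMIs (CPM). Intervals in parentheses are 95% intervals of the counting error alone and say nothing of the variation among animals, and no p-value is given. The libraries held 31955157 to 45834980 UMIs. After filtering, 8625 to 10031 cells per library were analysed, 37594 in all, with a median of 2583 to 3487 UMIs per cell. Of 37456 distinct barcodes, 138 occurred in at least 2 libraries.

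Cells were named from marker lists that contain no complement gene, with complement genes also left out of the clustering, and 19 classes of at least 50 cells were compared. The largest were capillary endothelial-like (13401 cells), fibroblast-like (8005), endocardial-like (2965) and arterial endothelial-like cells (2837). A further 2636 endothelial-like cells, led by Kirrel3, were named from the general endothelial list, which scored above the lists of vascular beds. Their venous and capillary markers summed to 813 and 2526 CPM, against 56.1 and 4889 CPM in capillary endothelial-like cells. Macrophage-like cells numbered 1234. Library 3 stood apart in giving 652 of them, 7.56% of its cells, against 1.54% to 2.89% in the other libraries. Libraries 2 and 4 held 82 and 34 of the 119 macrophages of a serous-cavity type described below, and each result that rests on them is given with and without them.

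Before the levels, the promoters of the genes found mainly in macrophages are shown. Macrophage-like cells were highest for 7 genes of the set and epicardial or mesothelial-like cells for 6. This lead rests on Cfp and the serous-cavity type, as described below. The genes C1qb, C1qc and C1qa lie side by side on the minus strand of chromosome 4 in build mm10, at chr4:136880129-136886187, chr4:136889804-136893065 and chr4:136895917-136898803. RefSeq promoter entries on build GRCm38.p6 were matched for 22 of the 32 genes. The motif searched was GAGGAA, the core of many sites bound by PU.1, an ETS factor of myeloid cells, on either strand. It occurred in 6 of the 22 genes and in 23.3% of all 32851 RefSeq promoter windows of 250 bases before the start. Of the 6 genes with an entry that were highest in macrophage-like cells, 4 held it (C1qb, C1qc, Fcna and Vsig4), whereas the windows of Cfp and C3ar1 did not. Cd59a and C5ar2 were the other genes with a match. The sequence upstream of the annotated exons is printed for these 4 genes, 5′ to 3′ on the minus strand, with GAGGAA or its reverse complement TTCCTC in capitals. A match is a description of the letters and not evidence of binding.
C1qb, chr4:136886201-136886450: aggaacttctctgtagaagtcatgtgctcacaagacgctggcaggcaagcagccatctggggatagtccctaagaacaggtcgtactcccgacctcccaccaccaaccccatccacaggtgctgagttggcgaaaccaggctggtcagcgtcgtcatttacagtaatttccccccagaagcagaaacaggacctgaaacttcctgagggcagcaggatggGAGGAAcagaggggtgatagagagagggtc
C1qc, chr4:136893066-136893164: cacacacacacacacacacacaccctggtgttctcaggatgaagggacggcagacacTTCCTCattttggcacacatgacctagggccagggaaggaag
Fcna, chr2:25628031-25628224: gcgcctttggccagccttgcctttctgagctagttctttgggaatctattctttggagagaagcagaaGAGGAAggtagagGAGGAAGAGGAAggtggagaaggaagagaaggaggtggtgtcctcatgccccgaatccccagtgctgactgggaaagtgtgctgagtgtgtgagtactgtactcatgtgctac
Vsig4, chrX:96293439-96293688: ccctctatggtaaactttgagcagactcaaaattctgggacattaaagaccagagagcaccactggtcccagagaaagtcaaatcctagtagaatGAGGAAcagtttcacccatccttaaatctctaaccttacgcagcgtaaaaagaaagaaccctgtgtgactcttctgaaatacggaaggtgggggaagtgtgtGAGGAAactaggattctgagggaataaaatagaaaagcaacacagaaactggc

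The set did not have 1 source. Of the 28 genes with at least 30 UMIs, 12 were highest in a stromal class, 10 in a myeloid class, 4 in an endothelial class and 2 in a lymphoid class. Macrophage-like cells held the highest level of 7 genes and epicardial or mesothelial-like cells that of 6. Cfp, among the 7, was at 141 CPM without the serous-cavity macrophages, below the 148 CPM of dendritic-like cells. For 22 genes the interval of the ratio to the next class lay above 1, and for 16 that ratio was at least 2. The same class was highest in all 4 libraries for 16 genes. A total of 20 genes reached 100 CPM in at least 1 class.

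A second count asked how many genes were at least 2-fold higher in a class than in all other analysed cells, with 5 CPM added on both sides, among the 27 genes with at least 100 UMIs. Macrophage-like cells had 11 of 27, where 7.21% of all 15613 features tested passed. The median log2 fold of the 27 genes there was -0.25, close to the -0.22 of all features, so the 11 stood beside genes that were lower. Epicardial or mesothelial-like cells had 8 of 27 (background 6.28%), fibroblast-like cells 6 (8.06%) and endocardial-like cells 5 (3.82%). Their median log2 folds over the 27 genes were -0.63, -0.88 and -0.96, against -0.16, -0.11 and -0.10 over all features. Fcna and Vsig4 reached 100 UMIs only through macrophage-like cells (900 of 933 and 477 of 527 UMIs). C7 did so only through fibroblast-like cells (3392 of 3488) and Masp1 only through endocardial-like cells (84 of 152). The counts are therefore a description and no support for a difference.

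Capillary endothelial-like cells had 3 genes above 2-fold (background 5.85%), as did neutrophil-like (8.26%) and smooth muscle-like cells (5.94%). Arterial endothelial-like (3.83%), B cell-like (6.62%), Schwann-like (7.37%), pericyte-like (6.39%), monocyte-like (7.94%) and non-classical monocyte-like cells (8.41%) had 2 each. Dendritic-like (7.28%), endothelial-like (2.93%) and lymphatic endothelial-like cells (4.58%) had 1 each. T cell-like, NK cell-like and ILC2-like cells had 0, where 6.73%, 7.58% and 6.62% of features passed. With 1 library left out the count ranged from 0 to 2 in lymphatic endothelial-like cells, with 0 without library 4 and 2 without library 1 or 2. It was 1 in monocyte-like cells without library 1 or 2, 1 in non-classical monocyte-like cells without library 2 and 1 in B cell-like cells without library 3. Endothelial-like cells had 2 without library 3. In the classes with 3 genes or fewer the share of the set was 11.1% or less. It lay above the background in some, such as capillary endothelial-like cells (11.1% against 5.85%). In others it lay below, as in T cell-like cells (0% against 6.73%). With so few genes nothing is read from these counts, and the genes are described below by level.

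**Figure D1:**
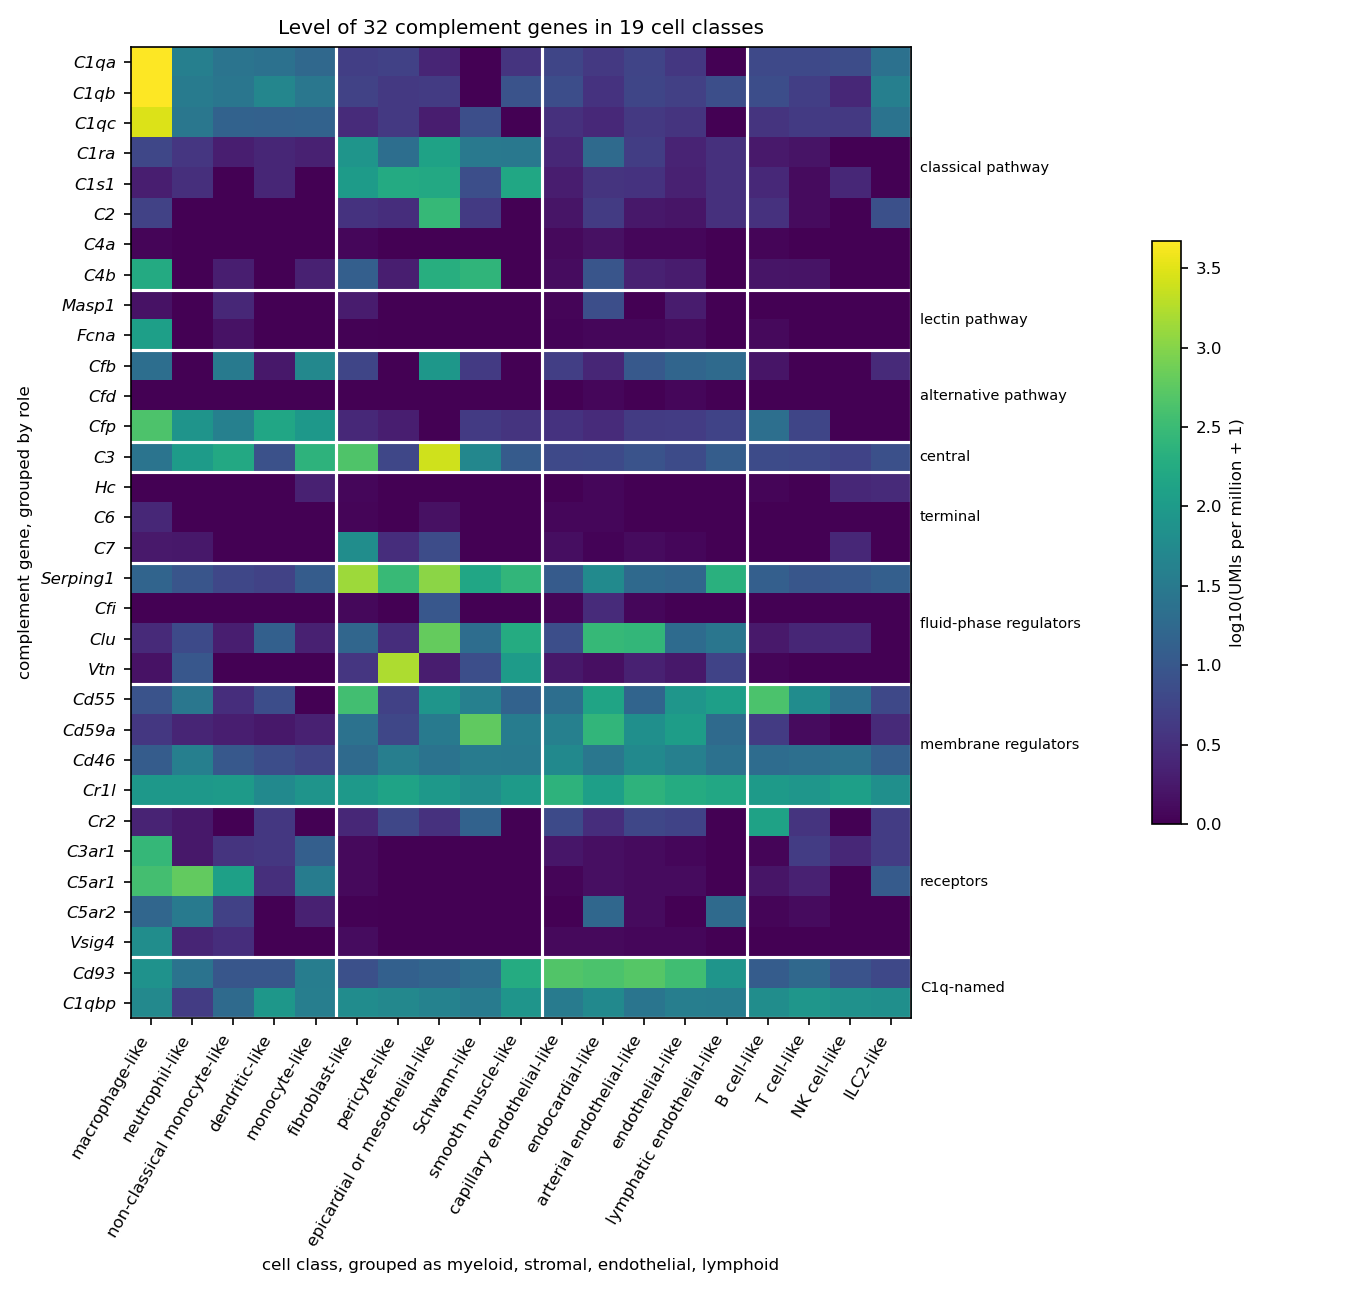
Level of each of the 32 genes (rows, grouped by role) in 19 cell classes (columns, grouped as myeloid, stromal, endothelial and lymphoid), as log10 of CPM plus 1 over the 4 libraries together. The C1q genes form a bright block in macrophage-like cells, C3 and Serping1 in epicardial or mesothelial-like and fibroblast-like cells, Vtn in pericyte-like cells, and the bottom of the scale marks genes at or near 0.

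The classical pathway was divided between cell types at its first step. C1qa, C1qb and C1qc, which encode the chains of C1q, were almost confined to macrophage-like cells, which held 93.7%, 93.1% and 93.8% of their UMIs while making up 3.28% of cells. C1ra and C1s1, which encode the proteases that C1q activates, were stromal transcripts. C1qa stood at 5136, 4303, 4929 and 4199 CPM in macrophage-like cells of libraries 1 to 4, against 9.57, 12.0, 55.2 and 2.47 CPM in all other cells. C1qb stood at 4954, 4470, 4722 and 4607 CPM and C1qc at 3030, 2689, 3174 and 2762 CPM in macrophage-like cells of the same libraries. The libraries lay close together, and none overlapped with the values in other cells. Those other cells include the cycling and unnamed cells left out of the classes compared. Among them is a cycling cluster of 40 cells with macrophage markers, 26 of them in library 3. Over the non-myeloid classes compared, C1q summed over its 3 genes was at 8.92, 14.2, 19.4 and 4.91 CPM in libraries 1 to 4.

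Pooled, C1qa was at 4688 CPM (4639 to 4737), 127 times (97.0 to 169) the 37.0 CPM of neutrophil-like cells, the next class. C1qb was 96.7 times its level in dendritic-like cells, and C1qc 109 times its level in neutrophil-like cells. A C1qa UMI was seen in 96.8% of macrophage-like cells, against 1.66% of fibroblast-like cells, whose median depth of 6539 UMIs exceeded the 5529.5 of macrophage-like cells. With each cell thinned to 1000 UMIs the shares were 92.6% and 0.314%. Summed C1q was at 12323 CPM in macrophage-like cells and at 11.3 CPM over all non-myeloid classes, where C1qa, C1qb and C1qc gave 37.2%, 43.2% and 19.7% of it, against 38.0%, 37.8% and 24.1% in macrophage-like cells. The part of free RNA in the low level outside macrophage-like cells was not tested. The summed level in neutrophil-like cells was 308 CPM in library 3 and 5.07 to 12.0 CPM in the other libraries, and 1 cell held 62.3% of their C1qa UMIs.

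C1ra and C1s1 lie near each other on chromosome 6. C1ra was highest in epicardial or mesothelial-like cells at 114, 162, 77.4 and 125 CPM over libraries 1 to 4, against 77.1, 79.6, 83.3 and 85.4 CPM in fibroblast-like cells. In library 3, which had 27 epicardial or mesothelial-like cells, the order was the other way round. C1s1 was at 172 CPM (147 to 200) in pericyte-like, 161 in epicardial or mesothelial-like, 151 in smooth muscle-like and 102 CPM (99.0 to 104) in fibroblast-like cells. The ratio of pericyte-like to epicardial or mesothelial-like cells was 1.07 (0.884 to 1.29), so these neighbours did not differ beyond counting error. Over libraries 1 to 4 pericyte-like cells were at 187, 186, 175 and 124 CPM, and in library 4 smooth muscle-like cells were higher, at 220 CPM. By abundance, fibroblast-like cells gave 85.0% of all C1ra and 86.8% of all C1s1 UMIs.

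C2 and C4b encode the substrates of C1s. C2 was found mainly in epicardial or mesothelial-like cells, at 258, 326, 214 and 283 CPM over the libraries. Pooled, it stood at 285 CPM (263 to 309), 41.3 times (16.0 to 152) the 6.91 CPM of ILC2-like cells, which rested on 4 UMIs. These 311 cells, 0.827% of all, held 68.8% of the C2 UMIs, and 71.4% of them had one, against 1.54% of fibroblast-like cells at similar depth.

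C4b was at 251 CPM (198 to 314) in Schwann-like, 198 (180 to 218) in epicardial or mesothelial-like and 175 (166 to 184) in macrophage-like cells. The ratio of the first to the next was 1.27 (0.982 to 1.62), and without library 3 another class was above Schwann-like cells (log2 ratio -0.32). Without the serous-cavity cells macrophage-like cells were at 42.0 CPM, below the other 2 classes. Schwann-like cells had 209 and 369 CPM in libraries 1 and 4, the libraries with enough of them for a value. Its libraries fell apart, with 16.0, 418, 30.4 and 340 CPM in macrophage-like cells and 95.9, 279, 77.4 and 225 CPM in epicardial or mesothelial-like cells of libraries 1 to 4. Libraries 2 and 4 were higher in both classes, whereas fibroblast-like cells had 10.6, 11.7, 15.5 and 14.0 CPM. C4a had 27 UMIs in all. The longest transcripts of C4a and C4b are 96.1% identical, and 20.2% of 90-base windows in their last 500 bases are shared, so how reads split between them is uncertain.

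In the lectin pathway, Fcna (ficolin A, which recognises sugars on microbes) was a macrophage transcript. It stood at 35.8, 215, 49.3 and 249 CPM in macrophage-like cells of libraries 1 to 4, and these held 96.5% of its UMIs. The next class had 1 UMI. Masp1, which encodes a serine protease of this pathway, was low and highest in endocardial-like cells at 6.63 CPM (5.29 to 8.20), with 5.55, 4.35, 6.08 and 8.67 CPM over the libraries.

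C3, the component at which the pathways meet, had 32114 UMIs in all and came mainly from stroma. Epicardial or mesothelial-like cells had 2300, 2392, 2067 and 2871 CPM over libraries 1 to 4, and fibroblast-like cells 521, 380, 507 and 431 CPM. The classes did not overlap, and pooled C3 was 2504 CPM (2437 to 2572), 5.43 times (5.27 to 5.60) the 461 CPM of fibroblast-like cells. Fibroblast-like cells, being more numerous, gave 77.6% and epicardial or mesothelial-like cells 16.6% of all C3 UMIs. A C3 UMI was found in 99.0% of epicardial or mesothelial-like and 61.2% of fibroblast-like cells, against 1.96% of B cell-like cells (median depth 6853, 6539 and 4006 UMIs). Among myeloid cells C3 was highest in monocyte-like cells (233 CPM), followed by non-classical monocyte-like (164) and neutrophil-like cells (103 CPM).

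The alternative pathway was split again. Cfp encodes properdin, which stabilises the C3-cutting complex and is made by white cells. It stood at 179, 1003, 107 and 764 CPM in macrophage-like cells of libraries 1 to 4, against 4.68, 12.2, 8.68 and 5.50 CPM in all other cells. Its pooled 445 CPM was 3.00 times (2.61 to 3.47) the 148 CPM of dendritic-like cells. Dendritic-like cells had 96.1, 208, 129 and 151 CPM over the libraries and were the higher class in library 3, which held 652 of the 1234 macrophage-like cells. Without the serous-cavity macrophages it was 141 CPM, close to dendritic-like cells (log2 ratio -0.07). The lead over the next class, 1.59 on the log2 scale, was 0.88 without library 2 and 2.31 without library 3.

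Cfb, encoding factor B, was highest in epicardial or mesothelial-like cells at 87.1 CPM (75.0 to 101), ahead of monocyte-like (51.1), non-classical monocyte-like (31.4) and macrophage-like cells (20.2). Without the serous-cavity type macrophage-like cells were at 3.70 CPM. Over libraries 1 to 4 epicardial or mesothelial-like cells had 44.3, 153, 17.9 and 71.4 CPM, a spread wider than the gap between classes. Monocyte-like cells were higher in library 2, at 176 CPM, and lymphatic endothelial-like cells in library 3, at 20.6 CPM. Both values of library 3 rest on a few UMIs, from 33 lymphatic endothelial-like and 27 epicardial or mesothelial-like cells. Epicardial or mesothelial-like cells were the highest in libraries 1 and 4, but library 4 had 13 monocyte-like cells, too few for a value. Cfb and C2 are neighbours on chromosome 17, 86 bases apart. Cfd, encoding factor D, which is known as an adipocyte product, had 3 UMIs in all. Of the 6 adipocyte markers, Adipoq, Cidec and Lep had 3, 2 and 1 UMIs. Plin1 had 33, and Pnpla2 and Lipe had 4987 and 6087.

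Of the terminal components, C7 was detected at a useful depth. It was a fibroblast transcript, with 97.2% of its UMIs in fibroblast-like cells, where it stood at 52.0, 51.4, 138 and 66.3 CPM over libraries 1 to 4. Library 3 was the highest, from 645 fibroblast-like cells. The pooled 62.8 CPM (60.7 to 64.9) was 10.3 times (5.99 to 19.3) the 6.12 CPM of epicardial or mesothelial-like cells, a log2 ratio of 3.36 that was 4.58 without library 2. C6 had 28 UMIs and Hc, the gene of C5, had 15 UMIs over all cells, too few for an order of classes.

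**Figure D2:**
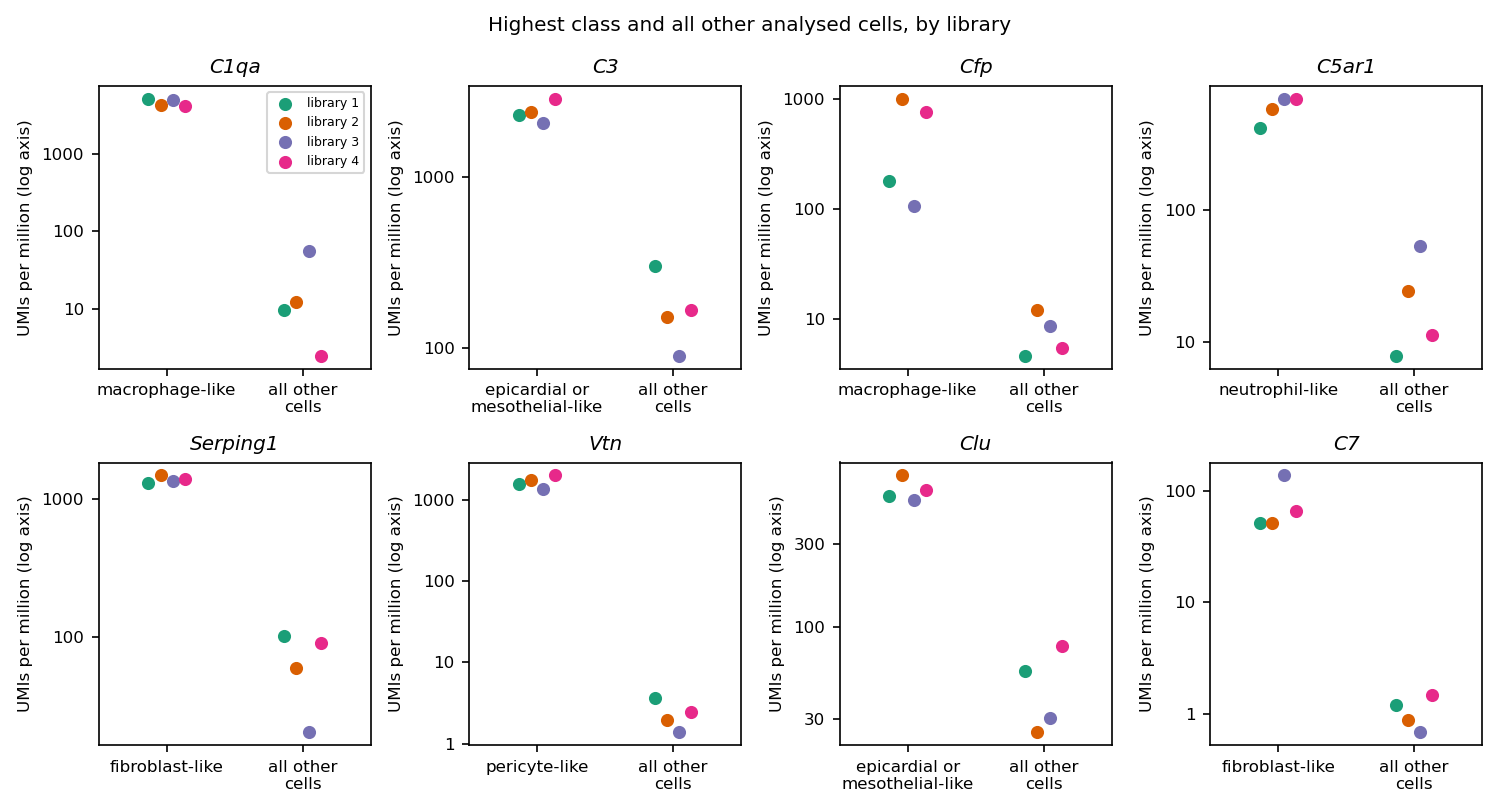
Levels of 8 genes in CPM (log axes) in the class where each was highest (left) and in all other analysed cells (right), 1 point per library. The class stands above the other cells in all 4 libraries for each of the 8 genes, while Cfp in macrophage-like cells divides into libraries 2 and 4 (1003 and 764) and libraries 1 and 3 (179 and 107).

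Of the soluble regulators, Serping1 encodes the C1 inhibitor, which blocks C1r and C1s, and had the most UMIs of the set (80355). Fibroblast-like cells had 1304, 1484, 1347 and 1385 CPM over libraries 1 to 4 and 92.5% of its UMIs. The next class, epicardial or mesothelial-like cells, had 1086 CPM (1042 to 1132), a ratio of 1.27 (1.21 to 1.32), and pericyte-like, smooth muscle-like and lymphatic endothelial-like cells had 292, 258 and 210 CPM. Fibroblast markers summed to 5606 CPM in epicardial or mesothelial-like cells, against 17896 CPM in fibroblast-like cells. The part of fibroblast RNA in the Serping1, C1ra and C1s1 values of the epicardial or mesothelial class was not tested.

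Vtn, encoding vitronectin, a plasma and matrix protein that blocks pore assembly, marked pericyte-like cells. Over libraries 1 to 4 these had 1578, 1758, 1350 and 2010 CPM, against 3.68, 1.94, 1.38 and 2.48 CPM in all other cells. Pericyte-like cells were 1.25% of cells and held 82.1% of its UMIs, and the pooled 1659 CPM was 16.3 times (11.9 to 23.0) the 102 CPM of smooth muscle-like cells, the other mural class. The log2 ratio was 4.03. Without library 1, which held 67 of the 108 smooth muscle-like cells, that class had fewer than the 50 cells needed, and the log2 ratio to the class then next was 7.50, which is no comparison with smooth muscle.

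Clu encodes clusterin, a chaperone that also restrains the terminal complex. It was at 559, 735, 530 and 605 CPM in epicardial or mesothelial-like cells, and pooled at 630 CPM (597 to 665). Endocardial-like cells, which line the chambers, had 284 CPM and arterial endothelial-like cells 267 CPM, with 346, 103, 160 and 390 CPM over libraries 1 to 4 in the arterial class. Endocardial-like cells held 44.1% of all Clu UMIs. At a clustering resolution of 2, where classes were named anew, the lead of the highest class fell to 0.04 on the log2 scale, against 1.15. Cfi, encoding the protease factor I, was low and highest in epicardial or mesothelial-like cells (8.95 CPM, 5.39 to 14.0).

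Membrane regulators, which protect host cells, differed by lineage. Cd55, encoding decay-accelerating factor, was at 597, 343, 825 and 517 CPM in B cell-like cells of libraries 1 to 4, and at 330, 404, 366 and 365 CPM in fibroblast-like cells. The order held in libraries 1, 3 and 4 and was reversed in library 2, which had 928 of the 1533 B cell-like cells. The log2 ratio of B cell-like cells to the next class was 0.25, and 0.87 without library 2. Fibroblast-like cells gave 72.1% of all Cd55 UMIs.

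Cd59a encodes the blocker of the membrane attack pore. It was highest in Schwann-like cells at 594 CPM (511 to 687), from 117 cells, with 652 and 533 CPM in libraries 1 and 4, followed by endocardial-like cells at 256 CPM (247 to 265), with 301, 250, 233 and 234 CPM over the libraries. Other endothelial classes had 109 CPM or less. Endocardial-like cells thus held 43.9% of its UMIs.

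Cr1l, the mouse gene of the C3-regulating protein Crry, and Cd46, a cofactor for C3b cleavage, were broad. Cr1l was at 235 CPM in arterial and 233 CPM in capillary endothelial-like cells, a ratio of 1.01 (0.955 to 1.06), and no class was at 0. The arterial class had 225, 261, 232 and 233 CPM over libraries 1 to 4, and the capillary class was higher in libraries 1 and 4. Cd46 was at 54.8 and 54.1 CPM in the capillary and arterial classes (ratio 1.01, 0.905 to 1.14). Both are neighbours of Cr2 on chromosome 1.

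Receptors were found mainly in white cells, with C5ar2 as the exception. C3ar1, the receptor for the C3a fragment, stood at 269, 203, 335 and 204 CPM in macrophage-like cells of libraries 1 to 4, and these held 92.2% of its UMIs. The pooled 275 CPM (264 to 287) was 23.2 times (12.6 to 48.4) the 11.9 CPM of monocyte-like cells. Vsig4, a macrophage receptor for C3b and iC3b, was at 83.8, 56.0, 62.1 and 61.7 CPM in the same cells, with 90.5% of its UMIs.

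C5ar1, the receptor for the C5a fragment, was highest in neutrophil-like cells, at 412, 579, 686 and 682 CPM over libraries 1 to 4, ahead of macrophage-like cells at 296, 389, 376 and 385 CPM. The classes did not overlap, and the pooled ratio was 1.66 (1.53 to 1.79). A C5ar1 UMI was found in 72.6% of neutrophil-like and 67.3% of macrophage-like cells, against 0.125% of fibroblast-like cells (median depth 2994, 5529.5 and 6539 UMIs). Macrophage-like cells, being more numerous, gave 67.9% of its UMIs, and non-classical monocyte-like cells had 119 CPM.

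C5ar2, the other C5a receptor, had another pattern than its neighbour on chromosome 7. It was at 31.4 CPM in neutrophil-like, 17.7 in lymphatic endothelial-like, 15.9 in endocardial-like and 15.2 CPM in macrophage-like cells, and endocardial-like cells held 50.5% of its 400 UMIs. The endocardial values were 14.4, 17.4, 18.2 and 15.5 CPM over libraries 1 to 4. C5ar1 had 5 UMIs in endocardial-like and 0 in lymphatic endothelial-like cells. The ratio of neutrophil-like to lymphatic endothelial-like cells was 1.78 (0.829 to 4.36), within counting error. Neutrophil-like cells were highest in libraries 2 and 3, endocardial-like cells in library 1 and lymphatic endothelial-like cells in library 4.

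Cr2, the receptor for C3d that lowers the threshold of B cell activation, was at 96.8, 149, 122 and 60.6 CPM in B cell-like cells of libraries 1 to 4. These held 69.3% of its UMIs, and the pooled 130 CPM was 9.97 times (3.88 to 36.7) the 13.1 CPM of Schwann-like cells, which rested on 4 UMIs.

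Cd93 and C1qbp are named for C1q binding, though Cd93 is better known as an endothelial matrix receptor and C1qbp as a mitochondrial protein. Cd93 was endothelial, at 474, 488, 527 and 499 CPM in arterial, 422, 506, 495 and 434 CPM in capillary and 463, 418, 413 and 419 CPM in endocardial-like cells. The arterial lead over the capillary class was 1.06 (1.02 to 1.10), and the capillary class was higher in library 2. C1qbp was broad, at 87.1 CPM (72.2 to 104) in dendritic-like and 83.9 CPM in T cell-like cells, no class was at 0, and the highest class differed between libraries.

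Macrophage-like cells were next divided into subtypes, again without complement genes. A serous-cavity type of 119 cells was named from Gata6, Selp, Alox15, Garnl3, F5 and Icam2, markers of macrophages that live in body cavities. It had 0, 82, 3 and 34 cells in libraries 1 to 4 and 18.4% of macrophage UMIs. It differed from the other macrophages in 6 of 16 complement genes at 2-fold or more higher, where 5.46% of 7633 features passed. The genes were Cfp, C4b, Fcna, Cfb, C3 and Serping1. A gene was counted here from 100 UMIs in macrophage-like cells. The serous-cavity type held 74.2%, 85.1% and 71.0% of those of C3, Cfb and Serping1 (138, 131 and 76 UMIs). C3, Cfb and Serping1 reached the minimum only through this type, so the count of 6 is a description and no support for a difference.

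Cfp stood at 1848 and 1700 CPM in the serous-cavity type in libraries 2 and 4, against 216 and 223 CPM in the other macrophages of these libraries. Pooled, it was at 1793 CPM (1724 to 1865), 12.7 times (11.8 to 13.8) the other macrophages. C4b was at 762 and 796 CPM in the serous-cavity type, against 97.5 and 76.5 CPM in the other macrophages of libraries 2 and 4, and 16.0 and 25.8 CPM in those of libraries 1 and 3. Fcna was at 391 and 523 CPM, against 50.5 and 90.4 CPM. The groups did not overlap for any of these 3 genes.

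Cfb was at 93.5 CPM in the serous-cavity type and 3.70 CPM in the other macrophages, and C3 at 98.5 and 7.73 CPM. A UMI of C4b, C3 and Cfb was found in 84.9%, 65.5% and 53.8% of serous-cavity cells, against 23.5%, 2.25% and 3.22% of resident cells, whose median depth was lower (5651 UMIs, against 11595). Serping1 was at 54.3 CPM, against 4.99 CPM. Fibroblast markers moved with it, as their 7 genes, none of them at 0, summed to 671 CPM in the serous-cavity type and to 38.7 and 52.5 CPM in the resident and MHC-II-high types. Dcn, the most abundant of them, was in 35.3% of serous-cavity cells and Serping1 in 10.9%, and the part of fibroblast RNA in these values was not tested.

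The serous-cavity type thus held 74.2% of the Cfp, 80.4% of the C4b, 85.1% of the Cfb, 74.2% of the C3 and 65.4% of the Fcna UMIs of all macrophage-like cells. It was lower than the other macrophages in C1qa, at 2836 against 5105 CPM, and in C3ar1, at 143 against 305 CPM. C5ar1 was level, at 395 against 367 CPM (ratio 1.08, 0.979 to 1.18). Without it, Cfp in macrophage-like cells was at 179, 216, 97.6 and 223 CPM over libraries 1 to 4 and C4b at 16.0, 97.5, 25.8 and 76.5 CPM. The number of genes 2-fold higher in macrophage-like cells was then 10 in place of 11. The gene lost was Cfb, at 3.70 CPM without this type, against 6.37 CPM in the cells outside the macrophage-like class. B-1-like cells, a B cell type common in body cavities, were also mostly in these libraries, with 9, 144, 2 and 52 cells over libraries 1 to 4. All B cell-like cells numbered 101, 928, 234 and 270 there, so libraries 2 and 4 also held most B cells of any type.

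**Figure D3:**
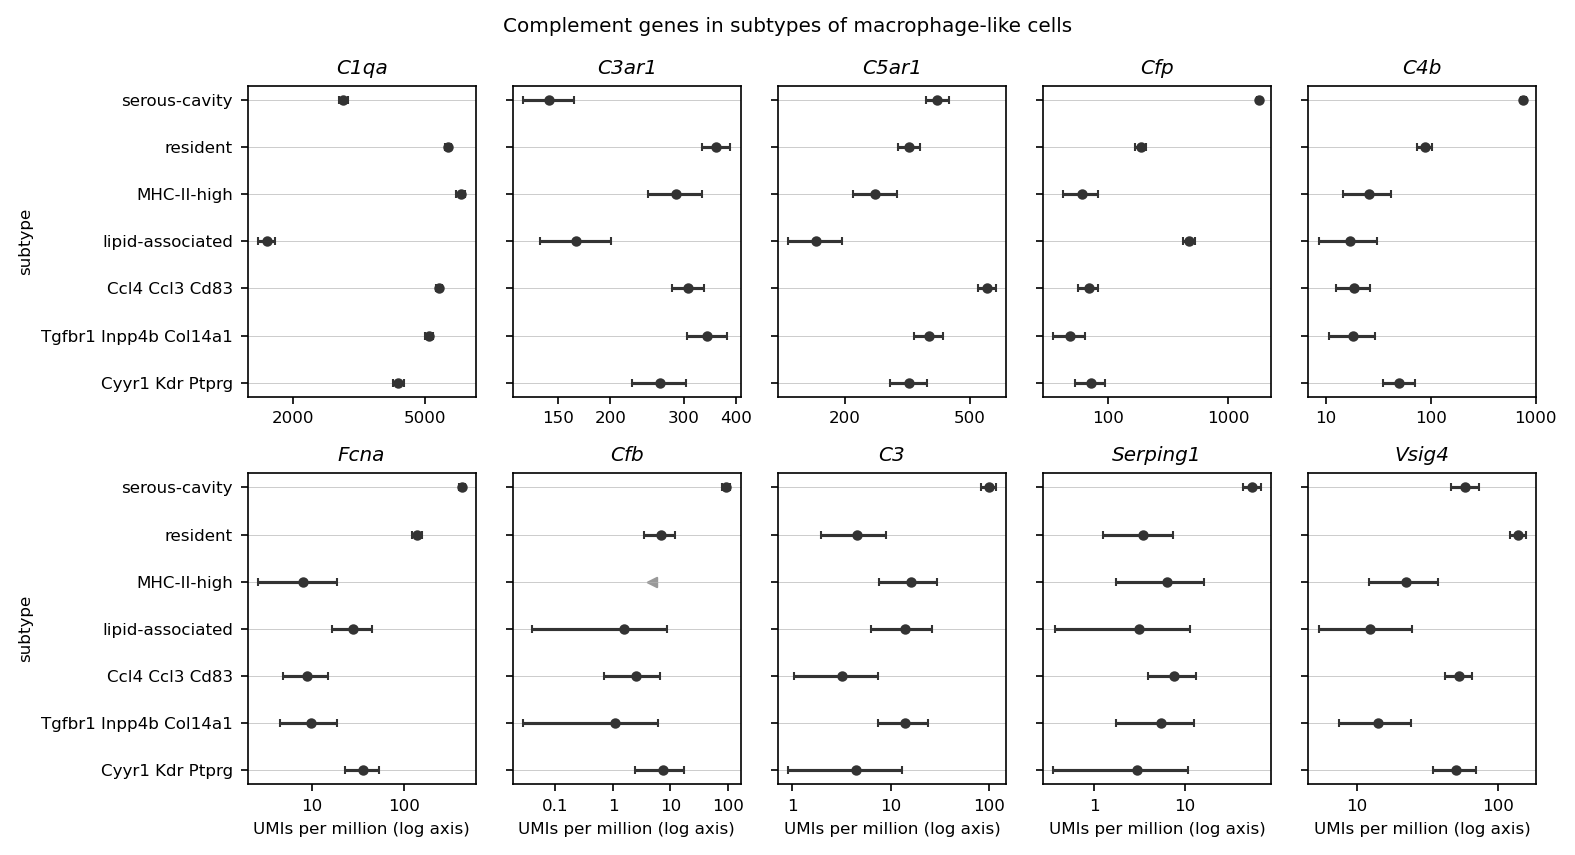
Levels of 10 genes in CPM (log axes) in 7 subtypes of macrophage-like cells, as points with exact 95% Poisson intervals over the 4 libraries together. A grey triangle marks a count of 0 at the limit that 3 UMIs would give. The serous-cavity type is highest in Cfp (1793), C4b (764), Fcna (420), Cfb, C3 and Serping1, and the resident type in Vsig4 (138).

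**Figure D4:**
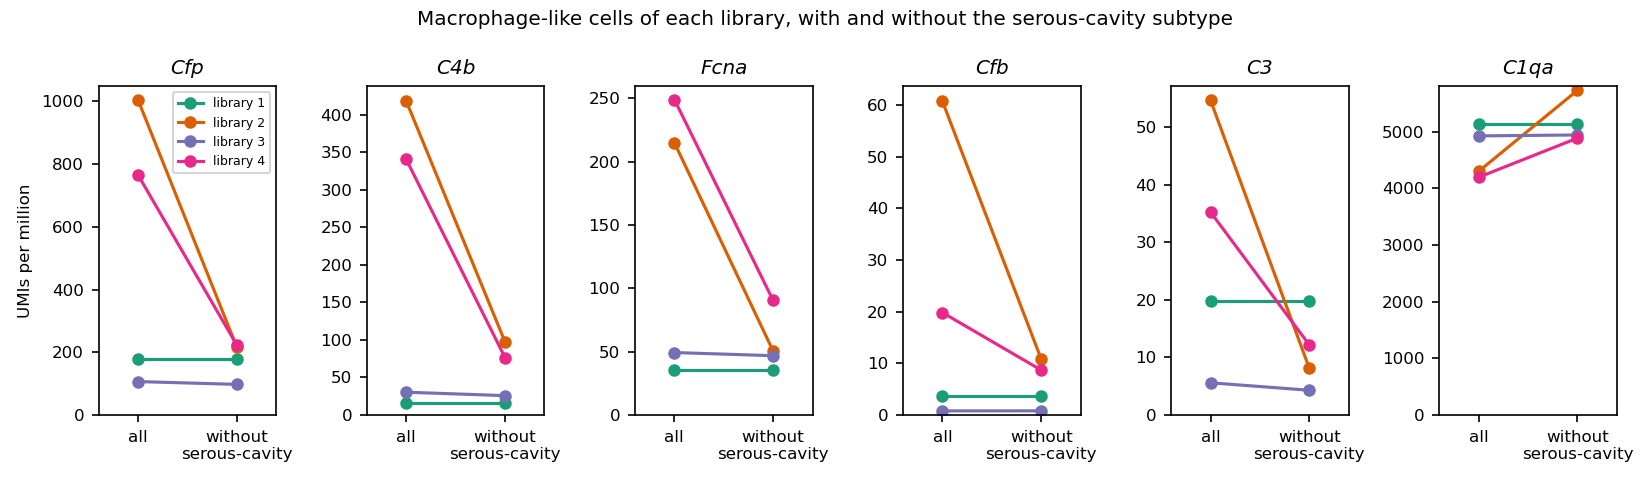
Levels of 6 genes in CPM (linear axes from 0) in macrophage-like cells of each library, with all cells (left) and without the serous-cavity type (right). Lines join the values of a library, and in libraries 2 and 4 the right-hand values are lower for Cfp, C4b, Fcna, Cfb and C3 and higher for C1qa.

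Among the other types, resident macrophages (311 cells) had 1 gene of 16 at 2-fold or more higher, where 1.78% of features passed. This was Vsig4, at 138 CPM (122 to 157), against 39.9 CPM in the other macrophages. Over libraries 1 to 4 it was at 130, 83.9, 169 and 10.1 CPM, against 62.9, 51.1, 19.1 and 68.0 CPM. Library 4, with 23 resident cells, went the other way, and without library 3 the gene was not 2-fold higher. Without library 2 there were 2 genes above 2-fold in place of 1. Resident cells also had the most C3ar1 of the named types (358 CPM) and Fcna at 137 CPM, below the serous-cavity type.

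MHC-II-high macrophages (183 cells), which present antigen, had 0 of 16 genes 2-fold higher, where 0.341% of features passed, but the highest C1qa of the 7 subtypes at 6413 CPM (6216 to 6614). Erythroid markers, mainly haemoglobin genes, summed to 10607 CPM in this type with none of the 6 at 0, to 4016 CPM in the Tgfbr1 subtype and to 16.4 to 51.9 CPM in the others, and their part in these values was not tested. Lipid-associated macrophages (64 cells), named for lipid-handling genes, also had 0 (2.74%). In them C1qa was at 1670 CPM, against 4967 CPM in the other macrophages, and C1qb and C1qc were at 2420 and 937 CPM. Cfp there was 474 CPM and C5ar1 161 CPM.

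An unnamed subtype led by Ccl4, Ccl3 and Cd83 (282 cells) had the most C5ar1, at 365, 650, 587 and 624 CPM over libraries 1 to 4, against 265, 348, 312 and 330 CPM in the other macrophages. The gap was present in all 4 libraries but under 2-fold, and 0 genes passed, where 1.36% of features did. The subtypes led by Tgfbr1 and by Cyyr1 had 0 and 1 genes (2.03% and 3.59%). The gene of the Cyyr1 subtype was Cd93 at 195 CPM, beside endothelial markers summing to 1583 CPM, against 56.98 CPM in resident cells.

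Fibroblast-like cells also differed among themselves. The Pi16 Cd248 adventitial type (1011 cells), which lies around vessels, had 3 of 19 genes 2-fold higher, where 1.55% of 12422 features passed. Cd55 was at 831, 908, 854 and 812 CPM over libraries 1 to 4, against 247, 294, 305 and 280 CPM in the other fibroblasts. C7 was at 126, 127, 299 and 122 CPM, against 39.8, 34.9, 118 and 55.7 CPM. Both were higher in every library, and neither overlapped. Cfb, at 12.2 against 3.52 CPM, was the remaining gene, and C3 was 1.59 times (1.54 to 1.64) higher at 673 CPM.

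The Postn matrix type (366 cells), named for periostin, had another set of 3 genes 2-fold higher (background 2.53%). Clu was at 268, 110 and 247 CPM in libraries 1, 2 and 4, against 4.92, 4.64 and 9.07 CPM in the other fibroblasts. Pooled, Clu was at 224 CPM, 41.5 times (35.9 to 48.1) the others. C4b was at 43.8 against 10.6 CPM and Cd59a at 54.7 against 21.3 CPM. Endocardial-like cells also had Clu and Cd59a at high levels.

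The same Postn type was low in the abundant fibroblast genes. C3 was at 104, 129 and 200 CPM in libraries 1, 2 and 4, against 551, 388 and 440 CPM in the other fibroblasts. Serping1 was at 650 against 1410 CPM, C1ra at 31.0 against 82.6 CPM and C1s1 at 33.0 against 105 CPM. Library 3 held 18 cells of this type and gave no value.

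Mfap4 Osr1 fibroblasts (1277 cells) had C7 at 108 CPM, 1.98 times the others, and 0 genes above 2-fold (background 1.83%). Chemokine-producing (Ccl2 Ccl7) and interferon-responding fibroblasts had 0 as well (0.853% and 0.974%), with C3 at 526 and 399 CPM. Of the unnamed subtypes, that led by Igfbp3 had C4b at 49.0 CPM, against 10.1 CPM in the others (1 gene, background 1.64%). That led by Kcnip1 had Vtn at 15.1 against 1.19 CPM (1 gene, 1.06%). That led by Fabp4, Cd36 and Flt1 had the C1q genes and Cd93 2-fold higher (4 genes, 2.75%), beside endothelial markers summing to 1077 CPM. The part of other cells' RNA was not tested. A gene was counted here from 100 UMIs in fibroblast-like cells. Vtn reached this minimum only through the Kcnip1 subtype and C1qc only through the Fabp4 subtype. The counts of these 2 subtypes are therefore a description and no support for a difference. The Gm26917 subtype (71 cells) had Cd46 as its 1 gene, where 19.5% of features passed. The other unnamed subtypes, led by Cxcl14, Ifitm1, Inpp4b and Lbp, had 0 (0.0966%, 0.411%, 0.00805% and 0.0%).

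**Figure D5:**
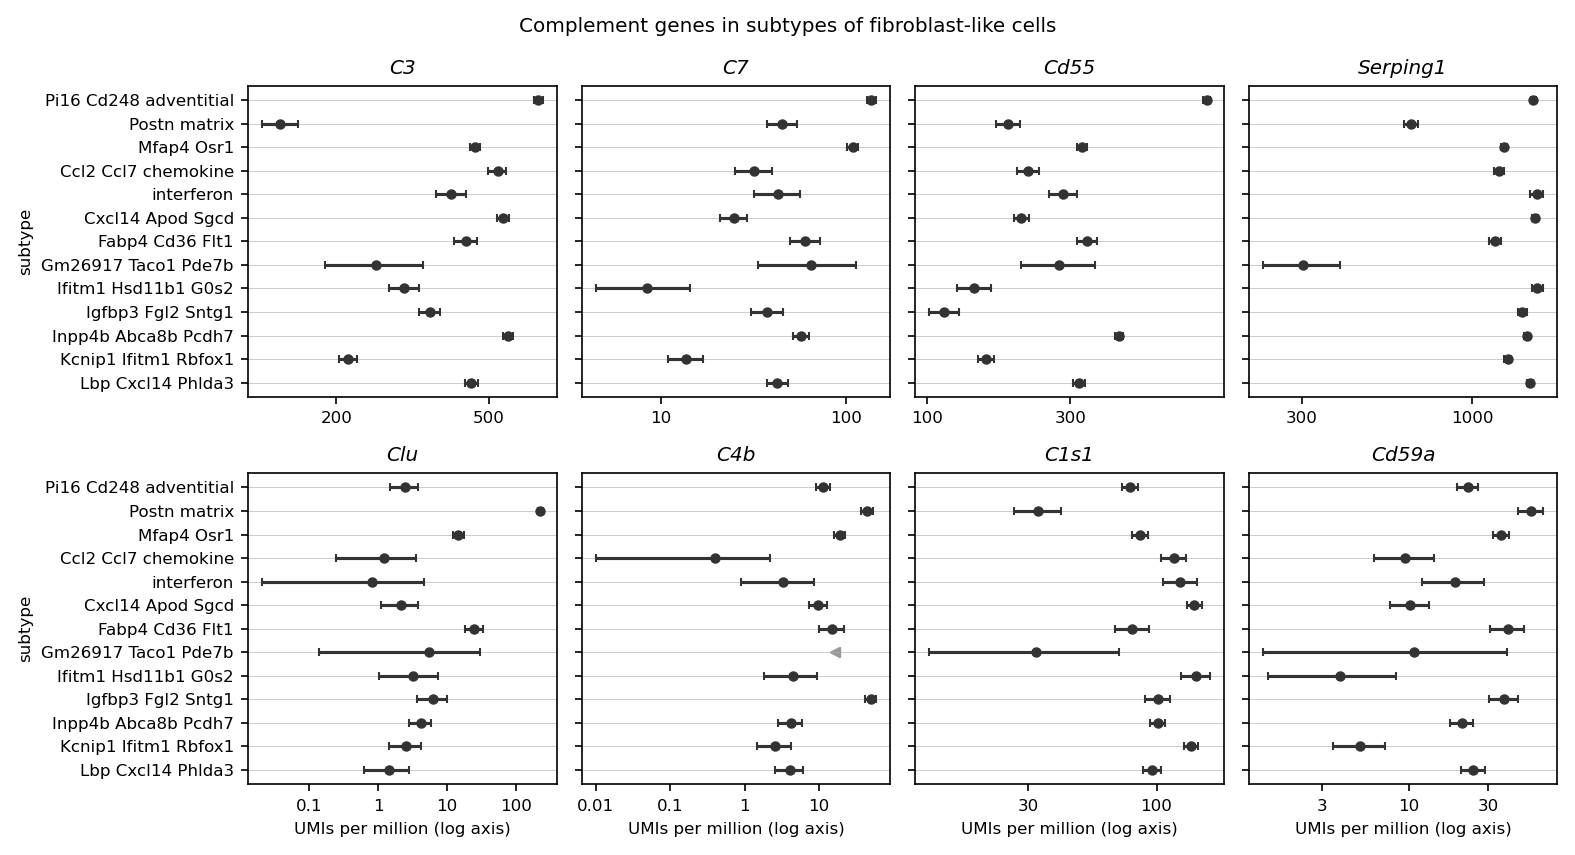
Levels of 8 genes in CPM (log axes) in 13 subtypes of fibroblast-like cells, as points with exact 95% Poisson intervals over the 4 libraries together, named types above and subtypes given by their leading genes below. A grey triangle marks a count of 0 at the limit that 3 UMIs would give. Cd55 (853) and C7 (137) peak in the Pi16 Cd248 type and Clu (224) in the Postn type, which is lowest in C3 (143).

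Among endothelial cells, which were divided together, venous-like cells (152 cells) had 5 of 18 genes 2-fold higher than the rest, where 3.93% of 12429 features passed. Clu was at 554, 310 and 343 CPM in libraries 1, 2 and 4, against 129, 63.5 and 140 CPM in the other endothelial cells. Serping1 was at 119, 93.7 and 149 CPM, against 34.7, 21.9 and 25.0 CPM. Cd55 was at 185, 151 and 153 CPM, against 65.6, 51.7 and 58.7 CPM, and none of these genes overlapped within a library. C1ra and Cfb rested on 14 and 12 UMIs. The endocardial subtype had 7 of 18 genes 2-fold higher (background 7.99%), namely C1ra, C4b, Serping1, Cd55, Cd59a, C5ar2 and Clu. Fibroblast markers stood high beside these genes, as their 7 genes, none of them at 0, summed to 1824 CPM in the endocardial and 1452 CPM in the lymphatic subtype, against 75.3 to 134 CPM in the other endothelial subtypes. C1ra, Serping1 and Cd55 are also high in fibroblast-like cells, and the part of fibroblast RNA in their values was not tested. C5ar2 in the endocardial subtype was 37.5 times (23.6 to 62.7) the other endothelial cells. A gene was counted here from 100 UMIs in endothelial cells. C5ar2 and C4b reached this minimum only through endocardial cells, and whether C1ra did was not tested. The count of 7 in the endocardial subtype is therefore a description and no support for a difference.

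The arterial subtype had Clu alone (background 1.98%), and the lymphatic subtype Serping1, Cd55 and C5ar2 (6.1%), a count of 3 that was 1 without library 4. Serping1 and Cd55 in the lymphatic subtype stood beside its 1452 CPM of fibroblast markers. The subtype led by Kirrel3 had Cfb at 14.0, 19.7, 19.4 and 15.9 CPM over libraries 1 to 4, against 2.64, 4.09, 3.42 and 5.56 CPM, as its 1 gene (1.19%). Interferon-responding and Aplnr Nrp2 capillary cells had 0 (0.933% and 1.67%), as did the subtypes led by Aqp1 (0.0483%), Btnl9 (0.338%), Fos (0.821%) and Nav3 (0.306%). In the interferon type C3 was at 5.05 against 5.92 CPM and Cfb at 6.73 against 5.23 CPM, differences within counting error.

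B cell subtypes differed in Cr2 and Cd55. Conventional B-2-like cells (452 cells) had Cd55 at 859, 594, 891 and 807 CPM over libraries 1 to 4, against 426, 282, 748 and 428 CPM in the other B cells (1 of 6 genes, background 2.49%). The gap was below 2-fold without library 2. B-1-like cells (207 cells) had Cr2 at 22.0 and 7.22 CPM in libraries 2 and 4, against 193 and 88.1 CPM, and Cd55 at 182 and 265 CPM, against 398 and 648 CPM. None of their 6 genes was 2-fold higher, where 2.81% of features were. A subtype led by Tnfrsf13c, Lmo2 and Cd72 (260 cells, 233 of them in library 2) had Cr2 at 356 CPM, against 86.8 CPM (1 gene, background 0.322%). The subtypes led by Dusp2 (360 cells) and Jchain (173 cells) had 0 (0.294% and 0.713%).

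Genes with the most similar pattern were found by correlation of log2(CPM plus 5) over the 19 classes, as a description without a test. For C1qb they were C1qa (r = 0.98), C1qc (0.96) and Ms4a7 (0.96), a macrophage membrane gene. For Cfp the closest were Wfdc17 (0.94) and Clec4a2 (0.93), and for C5ar1 Hk3 (0.95) and Siglece (0.95), which are myeloid genes. For Cd55 Gm15675 (0.93) was first. For Serping1 they were Ndn, Irak1bp1 and Nbl1 (0.96 each), and for Cd93 Flt1 (0.94) and Gata2 (0.94), which are endothelial. C3 had no close match, with Rhou (0.88) first. Fcna and C7, each nearly limited to 1 class, matched other genes limited to that class, such as Pla2g2d and Cd5l, or Slc6a7, at 0.98 or more. The classes share libraries and depth.

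A further 33 genes of the pathway that are not in the set were looked up, with C4bp, C8b and Cpn2 at 0 UMIs. The collectin Colec11 was at 1182 CPM in pericyte-like and 133 CPM in endocardial-like cells, and Colec12 at 275 CPM in epicardial or mesothelial-like and 206 CPM in fibroblast-like cells. Mannose-binding lectin genes were barely detected, with 1 UMI of Mbl1 and 3 of Mbl2. The regulator Csmd1 reached 7632 CPM (7325 to 7947) in Schwann-like cells, against 94.6 CPM in the next class, and Susd4 59.6 CPM in lymphatic endothelial-like cells. Itgam, a chain of complement receptor CR3, was at 528 CPM in neutrophil-like and 506 CPM in non-classical monocyte-like cells, and its partner Itgb2 at 682 CPM in the non-classical monocyte-like class. Cpn1, a carboxypeptidase subunit that inactivates C3a and C5a, was at 38.1 CPM in epicardial or mesothelial-like cells and 0.72 CPM or less elsewhere. Terminal genes were rare here too, with 66 UMIs of C8g, 13 of C9 and 5 of C8a.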

How the data were processed

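Interstitial cells of 4 mouse hearts were profiled by droplet 3′ single-cell RNA sequencing. The authors deposited 1 table of UMI counts, and Cell Ranger 7.1.0 is named per the file headers, with build mm10 from the processing notes of the submitters. The sources used here do not say how the libraries were joined. Barcodes needed 500 UMIs, 250 genes and at most 15% mitochondrial UMIs (821 failed). Scrublet (scanpy 1.11.5) removed 1316 doublets. Its automatic threshold marked 0% of library 3, so 0.208, the median of the other libraries, was used there. Counts were scaled to 10000 per cell and logged. Then 2000 variable genes, 30 principal components, 15 neighbours and Leiden clustering at resolution 1 (leidenalg 0.10.2) were used, leaving out complement, reporter, sex-linked, haemoglobin, mitochondrial and ribosomal genes. Clusters were named from 28 marker lists (168 genes) when at least 3 markers were 2-fold higher.

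Decided after the clusters were seen were the haemoglobin exclusion, a further division of clusters with markers of unrelated classes, counting subtype markers as a class's own, and leaving 179 cardiomyocyte-like and 230 cycling cells out of the classes compared. The 1267 cells in unnamed clusters and 20 mast cell-like cells were also not compared, but all count among the other cells. Names rest on RNA alone, and each is to be read as X-like. CPM intervals are exact Poisson, ratio intervals exact conditional binomial, at 95%. A count of 0 allows up to 3 UMIs. Class values per library need 20 cells. The named genes are all 32, described by class and library where 1 class reached 100 CPM and otherwise by range, plus the 5 genes most like the most abundant of each role. Members and lists were chosen with earlier results of these data known. The scripts were tested on simulated data. Planned comparisons of stroke with control were not run.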

Additional observations from a re-analysis of the deposited data

How the results depend on the processing

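The order of classes was recomputed with a stricter cell filter, doublets kept, cells weighted equally, cells thinned to 1000 UMIs, Leiden resolution 2 and each library left out. The serous-cavity type was also left out, chosen after seeing the data. The counts of genes highest in stromal, myeloid, endothelial and lymphoid classes stayed within 1.5 times under each of these and with no minimum of UMIs. Of 22 genes whose lead was beyond counting error, 2 changed sign. Cd93 was at -0.0048 (log2) at resolution 2, and Cfp at -0.0737 without the serous-cavity type. Of 40 counts, 4 of them by lineage and the others of genes above 2-fold, 14 moved by over 1.5 times under at least 1 alternative, and the cause was not tested. With cells weighted equally, arterial and capillary endothelial-like cells had 1 gene each, endothelial-like 0, lymphatic endothelial-like 2 and the B-2 subtype 0. With thinned cells, arterial and capillary had 1, endothelial-like 0, monocyte-like 4, the Aplnr Nrp2 capillary subtype 1, the lymphatic subtype 5 and the B-2 subtype 0. At resolution 2, monocyte-like cells had 1. With 20 CPM added, capillary had 1, endocardial-like 3, endothelial-like 0, lymphatic endothelial-like 0, non-classical monocyte-like 1, and the endocardial, lymphatic and venous subtypes 3, 1 and 3. Without the serous-cavity type lymphatic endothelial-like cells had 2. With each library left out, ranges were 0 to 2 in lymphatic endothelial-like, 1 to 3 in monocyte-like, 1 to 2 in non-classical monocyte-like, B cell-like and endothelial-like cells, 0 to 2 in the resident, 0 to 1 in the B-2 and 1 to 4 in the lymphatic subtype. With the stricter filter none of the 40 counts, and with doublets kept none of the 23 by class or lineage, moved by over 1.5 times. Subtype counts were not run with doublets kept, at resolution 2 or without the serous-cavity type. Single leads moved more. C1qa led the next class by 5.32 (log2) at resolution 2 and 5.80 with doublets kept, against 6.99. With doublets kept Vsig4 led by 2.40 against 4.95 and C7 by 1.81 against 3.36.

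No paired analysis was possible because the columns of the table carry no sample, so replicate numbers could not be used. Classes with few cells, such as monocyte-like (116) and lymphatic endothelial-like cells (146), give wide intervals, and a gene below about 3 UMIs in a class cannot be told from 0.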
